A study of Homo sapiens with 24 samples.

Results

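The peaks described here lie on the distal end of the long arm of human chromosome 20, from 20:55000001-63025520 (GRCh37), a segment of 8.03 Mb that ends at the chromosome end and holds the bands 20q13.31 (from 55000001), 20q13.32 and 20q13.33. Members were all peaks on chromosome 20 that start at or beyond this limit, in any of the 6 deposited peak lists. They numbered 477 of 6236 peaks, or 7.65%, on 0.259% of the genome length. The segment was chosen by its peak density, measured in these lists, so its count and density are given as a description with no test. The label by band holds for every member, since all lie in these 3 bands.

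The study sequenced chromatin immunoprecipitated for the MYC epitope tag (ChIP-seq), in 12 such libraries and 12 input libraries, each group with 2. PC9 is a human lung adenocarcinoma line driven by mutant EGFR, and PC9-OR is a form of it that is resistant to osimertinib, an EGFR kinase inhibitor. PC9 was untreated and was profiled as wild type and with overexpressed METTL7A carrying MYC-tag and FLAG. PC9-OR was grown in 1 uM osimertinib in every group and was profiled as wild type, with the empty MYC-tag-FLAG vector, with the same tagged METTL7A, and with its K86A form. Line and drug therefore cannot be told apart. The promoter of the vectors, and whether the lines are clones, were not stated in the sources used here. Peak lists hold no expression value, so neither the cell line nor the tagged protein could be checked against markers.

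METTL7A is a methyltransferase-like protein known from the endoplasmic reticulum and lipid droplets, and not a classical DNA-binding factor. The end of 20q is rich in genes, and gains of 20q are common in carcinomas. In RefSeq order on GRCh38.p14, used here for order only, BMP7 is number 444 of the 537 protein-coding genes of the chromosome, GNAS 460, EDN3 467, CDH4 473, LAMA5 483, PTK6 508 and RTEL1 514. BMP7 encodes a bone morphogenetic protein, GNAS a G protein subunit, EDN3 an endothelin, CDH4 a cadherin, LAMA5 a laminin chain, PTK6 a tyrosine kinase and RTEL1 a helicase acting at telomeres. No peak was assigned to a gene, and no sequence is shown, because no GRCh37 annotation or genome was used here.

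A peak caller judges a peak against the local background, the number of fragments expected at that place. This number is higher where a control library has more reads, as over extra DNA copies, open or easily sheared chromatin, or repeats that attract reads. It is thus another readout along the segment, beside where the peaks are, and which of these sources applies to it here was not tested. Each peak's fragment number and background were recovered here from the authors' deposited fold and p. Background is given in floors, where 1 floor is the genome-wide value of the same peak-calling run. The lists hold 10 such runs, told apart by peak numbering. Taking a run for a replicate is an inference, and peaks of 1 run share a library and are not replicates of each other.

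Only 2 of the 6 lists and 4 of the 10 runs held members. The list of PC9-OR with METTL7A held 471, of which 461 came from its second run and 10 from its first. The list of wild-type PC9 held 6, with 3 in each run. The lists of PC9 with METTL7A, PC9-OR wild type, PC9-OR with empty vector and PC9-OR with K86A held 0. These 4 lists have 56, 10, 6 and 1 peaks in all, and the segment's share of the genome length would give 0.145, 0.0259, 0.0156 and 0.00259 peaks. A count of 0 in them allows a share of up to 6.38%, 30.8%, 45.9% and 97.5%, the upper exact 95% binomial bounds, which here and below cover counting error only. Whether the segment differs between METTL7A and its controls in PC9-OR was therefore not detectable at these list lengths.

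In the second run of PC9-OR with METTL7A the members made up 9.47% of 4870 peaks (exact 95% interval 8.66 to 10.3%), 36.5 times the 12.6 that length would give, at 57.4 peaks per Mb. The first run of the same list had 10 members of 67 peaks, or 14.9% (7.40 to 25.7%), 57.6 times the number by length. Both runs of this group had a larger share of their peaks here than length gives. The segment was chosen by peak density in these same lists, so this excess is a description and no evidence of enrichment. In wild-type PC9 the first run had 3 members of 1143 peaks, or 0.262% (0.0542 to 0.765%), 1.01 times the number by length. The second run had 3 of 83, or 3.61% (0.752 to 10.2%), 13.9 times that number. With 3 members each, the intervals of the wild-type runs overlapped each other, and that of the second overlapped those of both METTL7A runs.

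**Figure D1:**
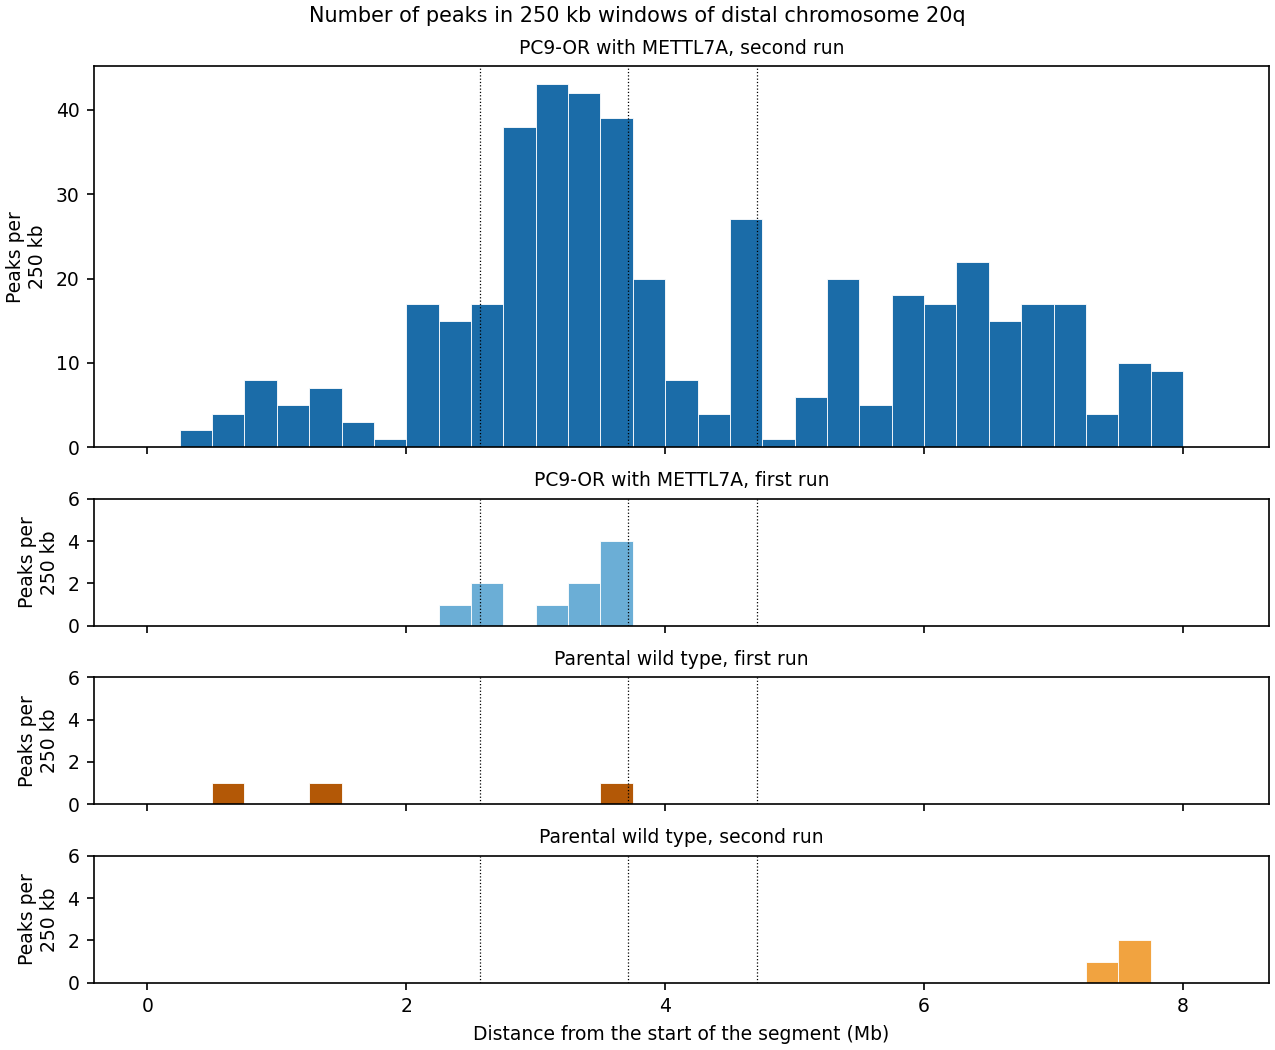
Number of peaks in windows of 250 kb against distance from the start of the segment in Mb, for the 4 peak-calling runs with members; dotted lines mark the borders between the proximal, raised, intermediate and distal stretches. The second run of PC9-OR with METTL7A (taller axis) has its 4 fullest windows, with 38 to 43 peaks, between 2.75 and 3.75 Mb, and the other runs have at most 4 peaks in a window.

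Peaks of the second METTL7A run were found along nearly the whole segment, but with a marked rise in one place. The rise coincided with a block of high recovered background. The segment was divided by a rule on neighbouring peaks, in which a row counts as raised when at least 5 members one after another have 2 floors or more. There were 4 such rows, and the longest, 20:57566027-58713744, held 178 members. It is called the raised stretch. The part before it is the proximal stretch, the part from its end to the end of the last row at 59707032 is the intermediate stretch, and the remainder is the distal stretch. Because backgrounds set these borders, differences in background between the stretches are a description of the borders and not a test.

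The raised stretch took up 14.3% of the segment's length and held 38.6% of the second-run members, at 155 peaks per Mb. The proximal stretch held 62 members at 24.2 per Mb. The intermediate stretch held 59 at 59.4 per Mb, and the distal stretch 162 at 48.8 per Mb. The rest of chromosome 20, by comparison, held 115 second-run peaks at 2.09 per Mb, and all other peaks of the run lay at 1.43 per Mb of the genome. Each of the 4 stretches was thus more densely filled than the remainder of the chromosome in this run. Peaks covered 14.1% of the raised stretch and 3.84% of the segment as a whole.

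Neighbouring peaks lay close in the raised stretch. The median gap between them was 1663 bp there, against 16812 bp in the proximal, 8453 bp in the intermediate and 9021 bp in the distal stretch. With peaks joined when within 10 kb, the 461 second-run members formed 164 clusters, of which 84 were single peaks and 9 had at least 10 members. Of these 9 clusters, 8 with 121 members were in the raised stretch and 1 with 10 members, 20:59675664-59708798, began in the intermediate stretch. The cluster with most members was 20:58299666-58364249, with 25 peaks that covered 52.6% of its 64584 bp. The longest was 20:58134263-58208040, with 22 peaks over 73778 bp. A shorter one, 20:58380338-58411554, had 12 peaks that covered 57.3% of its 31217 bp.

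Crowding was interrupted by empty stretches. The longest gap between second-run members was 290846 bp, from 59708798 to 59999645, directly after the last dense cluster of the intermediate stretch. The gaps of 248276, 245691 and 233217 bp that follow in size lay in the distal stretch and, for the last pair, in the proximal one. Within the raised stretch a gap of 118319 bp from 58411554 to 58529874 separated the densest clusters from a second dense block. In that gap the first run had the peak 20:58493194-58493489, so the place was not without peaks in both runs.

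**Figure D2:**
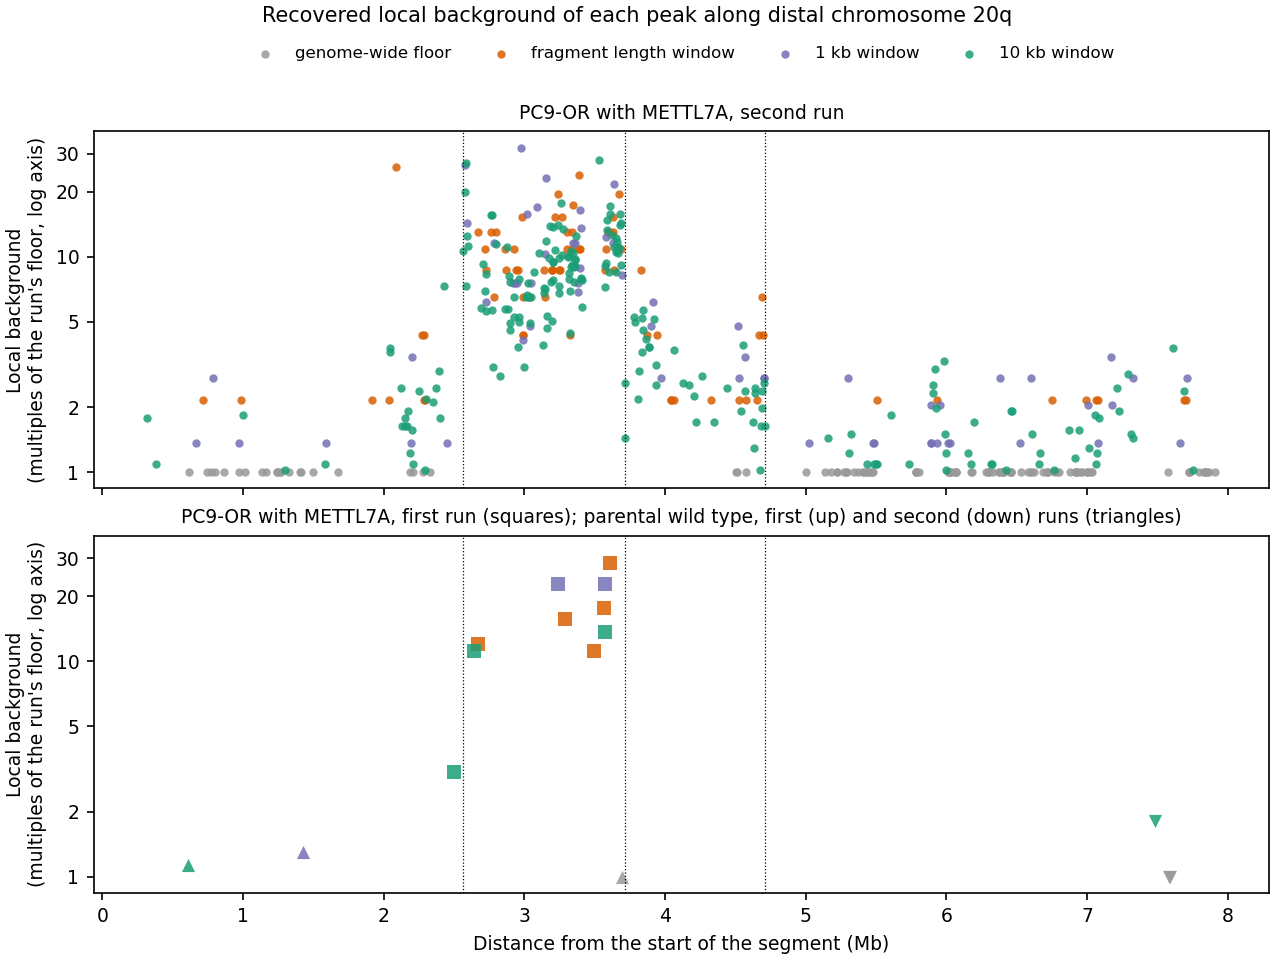
Recovered local background of every member, in multiples of its run's floor on a log axis, against distance from the start of the segment in Mb; color gives the control window that set the background, squares are the first run of PC9-OR with METTL7A and triangles the wild-type PC9 runs. Second-run values lie between 2.60 and 32.1 floors over the raised stretch, with single high values before it, fall near 3.71 Mb, and lie between 1 and 3.76 floors in the distal stretch.

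Local background was several times the genome-wide value in the raised stretch. Its 178 second-run members had a median of 9.19 floors, from 2.60 to 32.1, and 161 of them, or 90.4%, had at least 5 floors. In the proximal stretch the median was 1.37 floors and 2 of 62 peaks had at least 5. In the intermediate stretch it was 2.60, with 7 of 59 peaks. The distal median was at the floor, with 87 of 162 peaks exactly there and 0 at 5 floors or more. The distal stretch had 23.3 times the peak density of the rest of chromosome 20 in this run. Both had a median of 1 floor, the lowest value possible, which does not show that their backgrounds were equal. At the floor were 53.7% of the distal peaks and 67.0% of those on the rest of the chromosome, and 16.05% and 8.70% had 2 floors or more.

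Raised backgrounds were concentrated in this place within the run. Of the 226 second-run peaks on standard chromosomes with at least 5 floors, 170 lay in the 20q segment, or 75.2%. Chromosome 3 held 33 and all other chromosomes, the rest of chromosome 20 included, held 23. Outside the segment 62.2% of the run's peaks were at the floor and 1.29% had at least 5 floors, compared with 24.3% and 36.9% inside it.

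The backgrounds were not continuous values. Above the floor they fell on whole multiples of a few steps, which is the pattern that arises when they are read counts of a control library in windows of the fragment length, 1 kb and 10 kb, with the largest taken. That a control entered is read from these steps; which library it was is not stated in the sources used here. Where the 10 kb window was the largest, the multiple gives the number of control reads in it. One floor corresponded to 14.6 such reads in the second METTL7A run and 47.5 in the first, and to 53.9 and 14.8 in the wild-type PC9 runs. These values lean high, since the window enters only where it exceeds the others.

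In the raised stretch 106 second-run members gave a control read number for 10 kb, with a median of 131 and a range of 38 to 412, and the median was 8.95 times the genome-wide mean. The proximal stretch gave a median of 26 reads over 24 members and the intermediate stretch 37 over 35. In the distal stretch it was 21.5 over 46 members, or 1.47 times the mean, with no value above 55. Of 10 kb values alone, the order of the stretches was thus the same as for all backgrounds. These values are a part of the backgrounds that set the borders, so their order is no separate evidence. The remaining 72 members of the raised stretch took their background from the shorter windows, 26 from 1 kb and 46 from the fragment length.

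The raised stretch began after a gap of 113274 bp without second-run peaks. The last peak before the gap, 20:57452337-57452752, had 1.37 floors, and the first after it, 20:57566027-57566448, had 10.6 from 155 control reads. The peak before these, 20:57430559-57431065, already had 7.31 floors from 107 control reads, within the range of the raised stretch, so the change was not a single step. In the first run 20:57496728-57496963 had 3.07 floors from 146 control reads, and the next member, 20:57638594-57639001, had 11.20 from 532. A short row of 6 second-run peaks at 20:56920464-57125330, with a median of 3.04 floors and 1 peak at 26.1, lay farther before the raised stretch and followed a gap of 245691 bp.

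At the end of the raised stretch the background fell over several neighbouring peaks. There 20:58685841-58686386 had 14.3 floors from 209 control reads and 20:58688685-58689084 had 9.16 from 134. The peak 20:58690713-58691933 had 8.20 floors from a 1 kb window. The largest fall came next, to 2.60 floors from 38 reads at 20:58713297-58713744, and 20:58716332-58716994 was at 1.44 from 21. Background then rose again to 5.26 floors, from 77 reads, at 20:58778616-58779422. That peak opened a row of 27 peaks up to 59209103 with a median of 3.83 floors. The last row held 5 peaks, 20:59689936-59707032, with a median of 2.73.

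**Figure D3:**
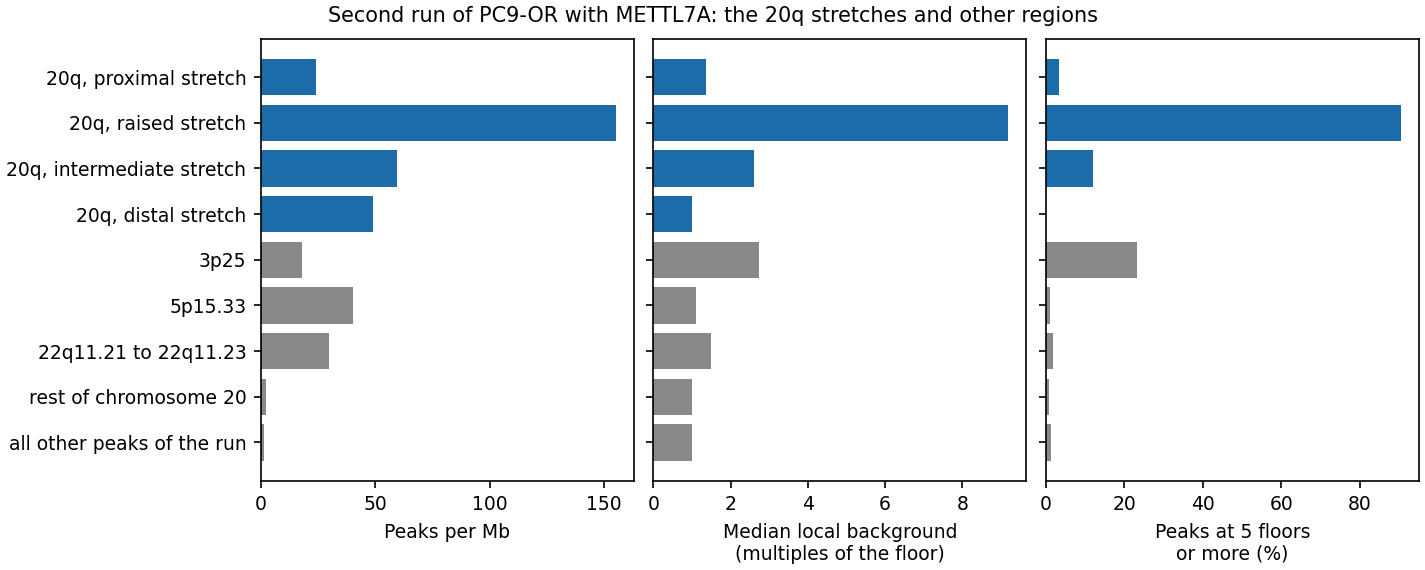
Peaks per Mb (left), median local background in floors (center) and percent of peaks with at least 5 floors (right) for the second run of PC9-OR with METTL7A, in the 4 stretches of distal 20q (blue) and in other regions (gray). The raised stretch has the longest bar in each panel, at 155 per Mb, 9.19 floors and 90.4%, while the distal stretch is at 48.8 per Mb, 1 floor and 0%.

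Other crowded regions of the same run did not reach both the density and the median background of the raised stretch, described with no test. The raised stretch was bounded by its backgrounds and these regions were not. Taken whole, the 20q segment had 57.4 peaks per Mb, a median of 2.53 floors and 36.9% of peaks with at least 5. The band 5p15.33 held 182 peaks at 40.4 per Mb with a median of 1.09 floors, and 1.10% of its peaks had at least 5. The bands 22q11.21 to 22q11.23 held 237 peaks at 29.6 per Mb with 1.504 floors and 1.69%. The distal 20q stretch was denser than both, and its median background was below that of 22q11.21 to 22q11.23, where 34.2% of peaks had 2 floors or more. The region 3p25 held 138 peaks at 17.9 per Mb with 2.73 floors and 23.2%, nearest to the intermediate stretch in background but less densely filled. Its median was slightly above that of the whole 20q segment. So was its highest background, 32.9 floors against 32.1, and its highest 10 kb control number, 481 reads against 412. At 2 floors or more were 68.8% of the 3p25 peaks and 58.8% of the segment's.

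Peaks of the segment were wider at the median than all other peaks of the run together, and its widest members lay in the raised stretch. The median second-run width was 489 bp in the segment, from 314 to 3334 bp, and 395 bp outside it. By stretch the medians were 439, 661, 409 and 441.5 bp from the proximal to the distal one. Widths of at least 1 kb were reached by 55 of the 178 peaks of the raised stretch, or 30.9%, by 7 of 62 in the proximal, 1 of 59 in the intermediate and 6 of 162 in the distal stretch. Outside the segment 3.20% of the run's peaks were that wide. The segment did not stand apart from 3p25 in width, where the median was 486 bp, 18.1% of peaks were at least 1 kb wide and the widest had 3769 bp. In 22q11.21 to 22q11.23 the median was 467 bp and 9.28% were that wide. Of the run's 210 such peaks on standard chromosomes, 69 were members, or 32.9%.

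Fragments per peak rose with the background, while fold did not. The median fragment number was 20 in the raised stretch, from 9 to 48, and 7, 9 and 6 in the proximal, intermediate and distal stretches. The median deposited fold was 4.94 in the raised stretch against 5.20, 4.69 and 5.08 in these 3. Fold is a ratio to the background after 1 is added to both numbers, so a peak in the raised stretch needed more fragments for the same fold. With a floor of 0.341 fragments in this run, the added 1 lowers the fold most at low background. Similar folds therefore do not show similar ratios of fragments to background. At a −log10 q of at least 5, 99 peaks of the raised stretch remained, or 55.6%, compared with 19.4%, 6.78% and 8.02% of the other stretches and 6.85% of all other peaks of the run. More fragments give a higher −log10 q at equal fold. Over the whole segment the share was 10.7% for second-run peaks at the floor and 50.6% for those at 5 floors or more. By stretch it did not follow the median background, as the intermediate stretch had the lowest share. What sets the share was not tested.

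**Figure D4:**
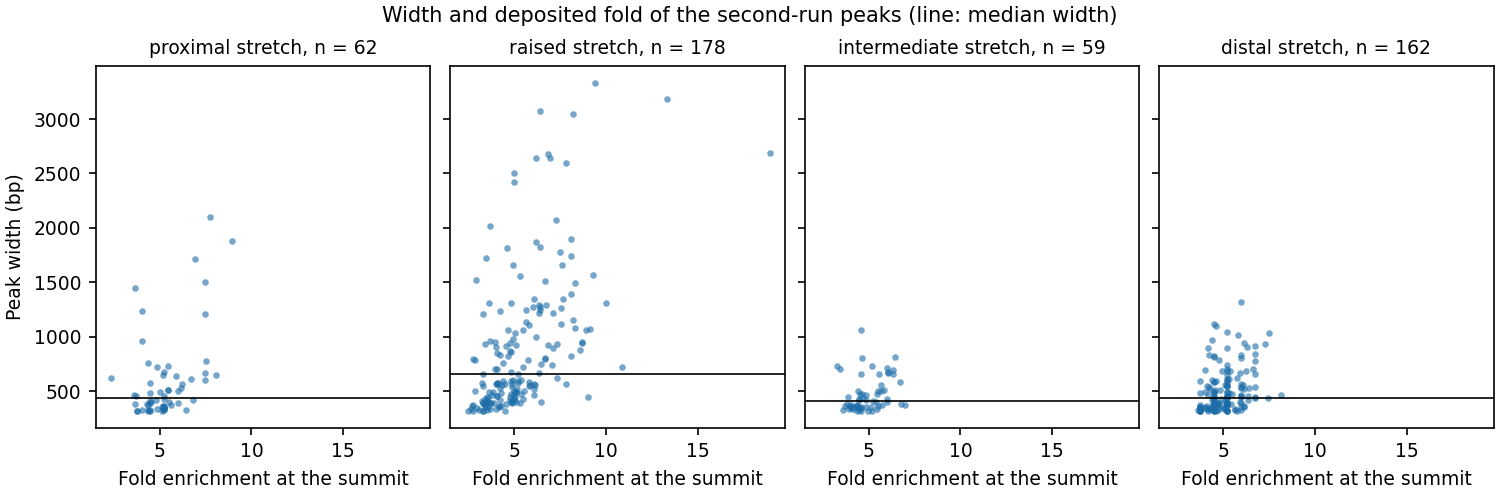
Width in bp against the authors' deposited fold for the second-run members in the 4 stretches; each point is a peak and the line is the median width. Folds above 9 and widths above 2103 bp occur only in the raised stretch, where the median width is 661 bp.

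Width was related to fold within the raised stretch. The 58 peaks there with a fold of at least 6 had a median width of 1235.5 bp, and the 120 with a lower fold had 530.5 bp. In the rest of the segment the medians were 628 bp for 46 peaks and 402 bp for 237. Segment peaks at the floor were 435 bp wide at the median, against 391 bp for the run's other peaks at the floor. Their median fold was also higher, 5.22 against 4.47, with 6 against 5 fragments. The floor is the lowest value possible, so equal backgrounds are not shown by it. At 5 floors or more the medians were 610.5 bp for the 170 members and 480 bp for the 57 other peaks, with 20 and 15 fragments. None of these comparisons has a replicate, as they rest on 1 run.

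The members with the highest folds lay close together. Of the 10 highest, 9 were in the raised stretch and 5 in the cluster of 25 peaks. The highest, 20:58325087-58327775, had a fold of 18.9 from 46 fragments over a background of 4.35 floors, and was 2689 bp wide. In the same cluster, 20:58317075-58320260 had 13.3 from 48 fragments over 115 control reads per 10 kb, and 20:58315750-58316469 had 10.9 from 41. Its neighbour 20:58328271-58331604 was the widest member, with 3334 bp and a fold of 9.38. As the fold is taken to the local background, these summits stood above it and not only above the genome-wide one, as all called peaks do.

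Among the 10 highest folds, 20:57189449-57191325 was the one outside the raised stretch. It lay in the proximal stretch, had a fold of 8.95 from 11 fragments at the floor, and was 1877 bp wide. At the end of the raised stretch, 20:58713297-58713744 reached a fold of 9.02 from 16 fragments over 2.60 floors. High folds were therefore reached at low as well as high background. Of the run's 50 highest folds on standard chromosomes, 17 were members.

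The first run of PC9-OR with METTL7A called far fewer peaks, and its members lay in and just before the raised stretch. Its 10 members spanned 1112016 bp, with 9 in the raised stretch and 1 in the 113274 bp gap just before it, and none in the intermediate or distal stretch. Their median background was 14.7 floors, from 3.07 to 28.7, and 9 of 10 had at least 5 floors. The run's 56 other peaks on standard chromosomes had a median of 1.05 floors, and 5 of them had at least 5, all on chromosome 3. The high background of the raised stretch was thus present in both runs of this group. Members of both runs entered by position, but the segment was chosen by peak density in these lists. The raised stretch was bounded by second-run backgrounds after they had been seen. Whether the runs had separate control libraries is not stated in the sources used here, so the runs are not known to be independent on this point.

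First-run members had many fragments and low folds. Their fragment numbers were 14 to 49, with a median of 35, against a median of 9 in the run's other peaks. Their folds were 2.26 to 4.87, with a median of 3.36 against 5.37. The highest fold was that of 20:57496728-57496963, the member at the lowest background. The highest fragment number, 49, was that of 20:58569173-58569540, with a fold of 3.88 over 17.6 floors. The highest background, 28.7 floors, was at 20:58608469-58608743, which had 45 fragments and a fold of 2.26. At these 3 peaks the fold fell as the background, which divides it, rose. Other members broke this order, as 20:58493194-58493489 had 2.94 at 11.1 floors and 20:58285382-58285666 had 3.87 at 15.7.

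The runs seldom called the same bases. At an overlap of 1 bp, 2 of the 10 first-run members lay on a second-run peak, which is 20.0% of the first run's members and 0.434% of the second's. These were 20:57670060-57670410, with 78 bp shared, and 20:58569836-58570217, with 143 bp shared. With peaks widened by 1 kb on each side 6 were shared, and with 50% of the smaller peak covered 0. All 10 lay within 50 kb of a second-run peak, at a median distance of 824.5 bp. With second-run peaks as dense as in the raised stretch, short distances arise without shared sites, and whether the sites are shared beyond that was not tested.

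Wild-type PC9 cells, which carry no tag and were not exposed to osimertinib, gave 6 members with few fragments. In the first run these were 20:55606499-55606757 with 2 fragments at 1.13 floors, 20:56424046-56424305 with 2 fragments at 1.30 floors, and 20:58692185-58692501 with 3 fragments at the floor. Their folds were 2.96, 2.95 and 3.95. In the second run they were 20:62479854-62480141 with 7 fragments at 1.82 floors, 20:62577718-62578173 with 6 at the floor and 20:62590773-62591035 with 5 at the floor, with folds of 5.78, 5.78 and 4.96. The 3 second-run members thus lay within the last part of the distal stretch, and none of the 6 reached 2 floors or overlapped a peak of PC9-OR with METTL7A.

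One wild-type peak allowed both groups' backgrounds to be read at nearly the same place. The peak 20:58692185-58692501 lay inside the raised stretch, 251 bp from the METTL7A second-run peak 20:58690713-58691933, which had 8.20 floors. Its background was the floor itself, so its 10 kb window held at most 53 control reads, not above the genome-wide 53.9. The nearest METTL7A value for 10 kb, 3100 bp away, was 134 reads, or 9.16 times that run's mean. At this peak the background was thus not above the genome-wide level of the wild-type PC9 run. At the nearby peaks of the PC9-OR METTL7A run it was several times above that run's level. A background is seen only where a peak was called, and the wild-type peak had 3 fragments. A peak with so few fragments is more easily called at low background, so the wild-type value leans low. Whether the rest of the stretch had a low background in that run is not shown. The comparison also rests on 1 wild-type peak, which lies close to the end of the raised stretch. The runs set side by side differ in line, drug, tag and depth, which cannot be told apart. The raised stretch could not be read in PC9 with METTL7A or in PC9-OR wild type, empty vector or K86A, whose lists have 0 peaks there.

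Peaks at the limit of the rule differed little. In the second METTL7A run the last peak outside, 20:54827141-54827534, had a fold of 4.47 from 5 fragments at the floor, and the first inside, 20:55320348-55320677, had 4.36 from 6 fragments at 1.78 floors. In the first run the last outside was 20:52767740-52767988, with 5.39 from 9 fragments at 1.26 floors. The last second-run member, 20:62910470-62911156, had 5.22 from 6 fragments at the floor. These pairs of single peaks do not show whether density changes at the limit. Within the segment, the second run had 1 peak in the 250 kb window that ends at 57000000 and 17 in the next.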

How the data were processed

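ChIP-seq peak lists of 6 MYC-tag immunoprecipitation groups were used, 1 list per group; grouping followed the sample titles. GRCh37 is the build in the submitters' processing notes, which also list MACS2 2.2.7.1, bedtools 2.30, deepTools 3.5.1, Bowtie2 2.4.2, SAMtools 1.16, FastQC and Trimmomatic. Their settings and the control were not stated in the sources used here. The deposited narrowPeak columns hold a score (not used), a fold, and −log10 p and −log10 q of the authors' peak caller, with q at most 0.05. The fold is the ratio of summit signal to local background with 1 added to each, so it is not a plain ratio where both are small. Starts and ends in bp are deposited positions, printed counting from 1.

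Runs within a list were separated where peak numbering restarts. Fragments n and background b were solved from fold = (n + 1)/(b + 1) and the upper Poisson tail, and all 6236 peaks were recovered. On simulated data 500 of 500 pairs were recovered and 1 of 500 decoys was accepted. The floor is a run's most common background, with at least 5 peaks. It was 0.676 and 0.341 fragments in the METTL7A runs of PC9-OR, 0.0131 and 0.211 in wild-type PC9 and 0.151 in PC9 with METTL7A. Library depth was not given by these files, and the floors do not measure that of the control. Of these runs, the first of wild-type PC9 had the lowest floor but the most control reads per 10 kb at the floor, 53.9. Steps of the background were fitted in 5 runs of over 20 peaks. All peaks of these runs were assigned to a window, a value that fits 1 kb and 10 kb to 1 kb, and on simulated data 97.6% of 2000 peaks and 100% of 60 were assigned to the right one.

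Members and rules were chosen with earlier results of these data known, and the division into stretches and the control steps were chosen after the backgrounds had been seen. Named peaks are all members of runs with at most 20 members and, in the longer run, the 10 highest folds, the 5 widest, the first and last, those next to the segment's start, the ends of the fullest and longest clusters and both sides of each background step; other peaks near both ends of the raised stretch were chosen after their values were seen. Only the leading ones are printed. No test was run. Alternatives were a minimum −log10 q of 5, at least 5 fragments, other segment starts, merging, cluster distances, windows, overlap rules and leaving out each run. Python 3.11.15, numpy 2.4.6, pandas 2.3.3, scipy 1.17.1 and matplotlib 3.10.9 were used. Gene order came from RefSeq GRCh38.p14, and band borders of GRCh37 from the cytogenetic band table of the circlize package.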

Additional observations from a re-analysis of the deposited data

How the results depend on the processing

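No test was run, so these values have counting error only. For the list of PC9-OR with METTL7A the reported values were a share of 9.54%, 58.7 peaks per Mb, 172 clusters over both runs, a median width of 480 bp and a median background of 2.60 floors. At a −log10 q of at least 5 they were 30.05%, 16.3 per Mb, 53 clusters, 819 bp and 7.86 floors. With at least 5 recovered fragments the share was 10.5%. Merging within 1 kb gave a share of 8.23%. Merging within 10 kb gave 4.74%, 21.4 per Mb, 836.5 bp and 1.64 floors, so the median background depends on how the crowded peaks are counted. Clusters numbered 384 within 1 kb and 42 within 50 kb. Peaks shared between the runs were 2 at 1 bp, 0 at 50% and 6 after widening. The fullest 250 kb window held 44 peaks, 58000001 to 58250000, tied with the next one, 58250001 to 58500000. In 1 Mb windows the fullest held 151, and after merging within 10 kb the fullest held 10, at 58750001 to 59000000. Leaving out 1 run at a time gave shares of 9.47 to 14.9%, 1.25 to 57.4 per Mb, 8 to 164 clusters, widths of 323.5 to 489 bp and 2.53 to 14.7 floors, so density and clusters rest on the second run. For wild-type PC9 the share was 0.489%, and 0.262 to 3.61% without 1 run. With at least 5 fragments it was 3.61%, the same value as without the first run, which has 0 members at that limit. The 2 settings are thus not separate checks. Starting the segment at 54000000 or 56000000 gave 52.5 and 65.0 per Mb and shares of 9.60 and 9.26%. No paired analysis was possible because the runs carry no replicate number that pairs groups and the results come from no test.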

Other observations

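The length of the shortest control window, computed from the steps, was 227.6 and 314.3 bp in the METTL7A runs of PC9-OR, 231.3 and 258.6 bp in wild-type PC9 and 236.9 bp in PC9 with METTL7A. The narrowest peaks of these runs were 227, 314, 231, 259 and 236 bp wide. The runs thus differed in fragment length, the second METTL7A run having the longest, and widths are comparable within a run only.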
